A study of Homo sapiens with 8 samples.

Results

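Intronless protein-coding genes were examined in K-562 cells in which the dosage of TASOR or its paralog TASOR2 had been altered. The genes were chosen from 3 tables of listed genes, each comparing 1 altered group with wild-type controls. A gene was taken where the GENCODE 29 annotation calls it protein-coding and gives every transcript of it 1 exon. Mitochondrial genes, zinc finger (ZNF) and protocadherin (PCDH) symbols, replication-dependent histone genes, NDN and NPAP1 were left out. This gave 17 genes, of 1221 genes listed in any table and 986 of those that code for protein. They account for 20 listings, since TSPYL6, RBMXL3 and FZD7 are each in 2 tables. A further 13 single-exon coding genes were set aside by symbol, 9 of them mitochondrial, 2 histone genes, and NDN and NPAP1. In all, 898 annotated genes meet the same rule whether listed or not.

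K-562 is an established human leukaemia line with erythroid features. The 8 libraries of ribosomal RNA-depleted total RNA form 4 groups of 2, namely wild-type cells with a negative sgRNA, TASOR KO cells, TASOR KO cells with a FLAG-TASOR transgene, and wild-type cells with a FLAG-TASOR2 transgene. Per the labels' protocols, the knockouts were grown from single sorted cells after CRISPR/Cas9 editing, and cells received a lentivirus with an empty puromycin vector or a tagged transgene. The promoter of the transgenes, and whether the 2 libraries of a group are separate clones, are not given in the sources used here, and no guide is named for the FLAG-TASOR2 cells. The p-values therefore measure the spread between these libraries, which may be technical.

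HUSH, the human silencing hub, contains TASOR, periphilin and MPP8, and represses LINE-1 retrotransposons and other transcribed DNA that lacks introns, with long and adenine-rich transcribed units as known targets. Most human coding genes have introns. The intronless ones include retrogenes, which arose when a spliced mRNA was copied back into the genome and are often expressed in testis, and families such as frizzled receptors, olfactory receptors and SOX factors. Of the 14 genes fixed as HUSH components and partners, TASOR was the only one in the knockout table, TASOR2 the only one in the FLAG-TASOR2 table, and none (0) was in the FLAG-TASOR table. In the authors' deposited tables TASOR was at a log2 fold change of -1.08 in the knockout and TASOR2 at 2.26 with FLAG-TASOR2. Of 14 erythroid markers of K-562, HBZ, HBA1 and HBA2 were listed as higher with FLAG-TASOR2 and HBE1 with FLAG-TASOR, and of 6 markers of other blood cells only PTPRC was listed, as higher in the knockout. A marker absent from a table has no value there.

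The authors listed a gene where its unadjusted p was below 0.05, its log2 fold change was beyond 1 in either direction and its log2 mean expression was above 1, as the values show. These thresholds set what follows, since every member had to pass them. The knockout table held 1.92% of the 13992 genes tested and the list for FLAG-TASOR2 held 6.31% of 14001. The FLAG-TASOR table held at most 1.87%, since at least 13957 genes were tested. How many intronless genes were tested is not known from the tables, so these shares are not set against the members. An adjusted p below 0.05 was reached by 0.00715% of genes tested in the knockout, by 0.0% with FLAG-TASOR and by 0.0357% with FLAG-TASOR2 in the authors' deposited tables. None (0) of the 17 members reached it in any table of the authors' edgeR-type F-test, while all 20 listings had an unadjusted p below 0.05. Members are therefore called listed as higher or lower, and none is said to have risen or fallen.

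The sequences show the range of the members. For the 6 genes listed as higher in any comparison the transcripts ran from 885 to 3629 nt. For the 11 listed as lower in any they ran from 885 to 6225 nt (GENCODE 29). The stretches of 90 coding bases with the most adenine are shown for 5 members listed as higher, with the richest and the poorest of the 6 among them, and for 3 listed as lower, the richest among them, because adenine content is a known feature of HUSH targets. Capitals mark adenine in the sequence of the transcript (the coding strand), 5′ to 3′, and positions are on GRCh38. DDX53 is shown at chrX:23000253-23000342 (plus strand), RBMXL3 at chrX:115189493-115189582 (plus), TSPYL6 at chr2:54255594-54255683 (minus), UQCRHL at chr1:15807542-15807631 (minus), OR51B4 at chr11:5301284-5301373 (minus), RIMBP3 at chr22:18609200-18609289 (minus), FZD7 at chr2:202035995-202036084 (plus) and TMEM158 at chr3:45225191-45225280 (minus).
DDX53: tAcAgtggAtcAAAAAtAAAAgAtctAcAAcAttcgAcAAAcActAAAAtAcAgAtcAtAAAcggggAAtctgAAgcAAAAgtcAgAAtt
UQCRHL: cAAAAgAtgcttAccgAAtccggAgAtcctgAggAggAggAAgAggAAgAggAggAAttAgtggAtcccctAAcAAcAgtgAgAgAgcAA
RBMXL3: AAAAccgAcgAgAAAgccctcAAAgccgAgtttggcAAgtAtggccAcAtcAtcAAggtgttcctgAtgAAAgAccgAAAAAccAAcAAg
TSPYL6: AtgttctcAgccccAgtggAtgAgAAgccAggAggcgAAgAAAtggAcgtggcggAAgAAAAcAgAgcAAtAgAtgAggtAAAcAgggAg
OR51B4: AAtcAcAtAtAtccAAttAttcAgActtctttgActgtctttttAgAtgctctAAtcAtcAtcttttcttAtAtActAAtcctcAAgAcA
RIMBP3: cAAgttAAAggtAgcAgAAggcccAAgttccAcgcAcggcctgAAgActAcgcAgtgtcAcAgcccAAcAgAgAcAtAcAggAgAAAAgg
FZD7: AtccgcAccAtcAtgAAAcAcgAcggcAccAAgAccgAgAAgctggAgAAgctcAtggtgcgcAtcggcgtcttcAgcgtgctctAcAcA
TMEM158: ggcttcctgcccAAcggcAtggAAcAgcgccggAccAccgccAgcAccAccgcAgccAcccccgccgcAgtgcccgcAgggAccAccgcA
Adenine made up 44 of the 90 bases in DDX53, 34 in UQCRHL, 35 in RBMXL3, 33 in TSPYL6 and 27 in OR51B4. It made up 33 in RIMBP3, 25 in FZD7 and 18 in TMEM158. Over all members the count ran from 27 to 44 for the 6 listed as higher and from 18 to 33 for the 11 listed as lower, so the ranges overlapped. The stretch is the richest of each gene by construction, so whole transcripts, which differ in their untranslated part, are given next.

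Over whole transcripts, adenine was 32.7% in DDX53, above 95.8% of the 888 intronless genes with a coding transcript in the annotation. UQCRHL had 29.1%, above 88.0% of them. TSPYL6 with 24.2% and RBMXL3 with 22.8% lay near the middle, above 59.0% and 47.9%. The median was 24.4% over the 6 members listed as higher and 20.6% over the 11 listed as lower, against 23.1% over the 888. The ranges overlapped, from 22.5% to 32.7% and from 10.5% to 27.1%. The 5 members with the least adenine, GJD3, ANKRD63, TMEM158, C11orf96 and FZD2, were all listed as lower, between 10.5% and 16.4%. By length, DDX53 (3629 nt), RBMXL3 (3442 nt) and TSPYL6 (3089 nt) were each longer than at least 86.6% of the annotated intronless genes. KCTD12 (6225 nt), RIMBP3 (6105 nt) and SOX4 (5852 nt), listed as lower, were longer still. These are descriptions of 17 genes with no test. As annotated, the coding part was 12.5% to 99.7% of the transcript, so whole transcripts do not compare like parts. ANKRD63, GJD3 and OR51B4 had almost no untranslated sequence.

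**Figure D1:**
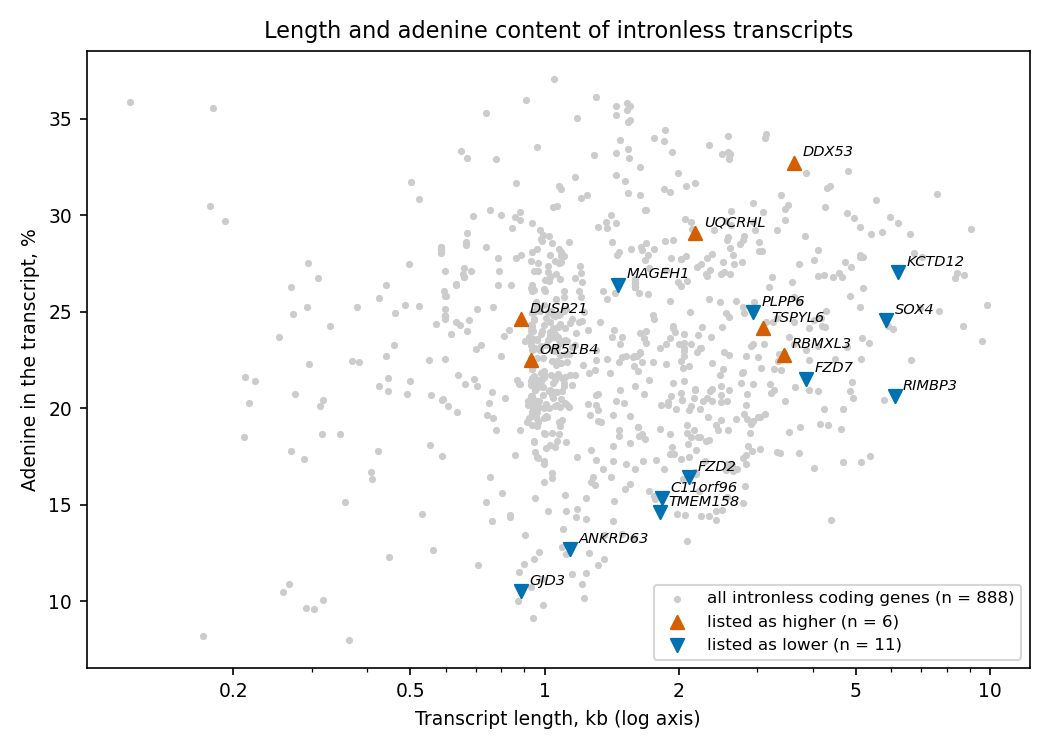
Transcript length in kb (log axis) against the share of adenine in percent, with grey points for the 888 intronless coding genes of the annotation, upward triangles for the 6 members listed as higher and downward triangles for the 11 listed as lower. DDX53 has the most adenine of the members at 32.7% and GJD3 the least at 10.5%, and the 2 sets, pooled over the 3 comparisons, overlap.

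The first question is which intronless genes were listed when TASOR was lost. There were 5, of which TSPYL6 and RBMXL3 were listed as higher and FZD7, MAGEH1 and TMEM158 as lower. That is 2 of 5 higher, beside 51.1% of all genes in the table. The members' median log2 fold change in the authors' deposited table was -1.60, beside 1.01 over all 268 listed genes and -1.09 over the 212 that code for protein, of which 46.7% were listed as higher. These 212 keep the symbols left out of the members, and 36 of 39 such genes were listed as higher, so they are no like set. With 5 genes of mixed sign the median is the value of FZD7, and it turned to 0.26 when LDOC1, a gene just outside the rule, was counted too.

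TSPYL6 (ENSG00000178021) belongs to the TSPY-like family of nucleosome assembly proteins and lies at chr2:54253184-54256272 (GRCh38) in an intron of ACYP2, on the opposite strand. It had an implied level of 23.4 CPM (counts scaled to the library total) in the knockout and 2.15 CPM in the controls. Such group levels were derived from the mean expression and fold change of the authors' deposited table, as no value per library is given. The log2 fold change in the authors' deposited table was 3.45 (SE about 0.36, p 0.000151, adjusted p 0.628). The SE was derived from the fold and its F statistic. Only 2 of the 268 listed genes had a smaller p. ACYP2 was in none of the tables. The sources used here do not say if strand was used in counting, and the part of ACYP2 reads in the TSPYL6 value was not tested.

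RBMXL3, an RBMX-like gene of an RNA-binding protein family, had the highest fold of the members in the knockout. Its implied level was 37.6 CPM in the knockout and 1.90 CPM in the controls. In the authors' deposited table its log2 fold change was 4.31 (SE about 1.05, p 0.00803, adjusted p 1.00), so the larger fold came with the larger SE. It lies at chrX:115189427-115192868 in an intron of LRCH2, on the opposite strand, and LRCH2 was in none of the tables. As for TSPYL6, the part of host gene reads in this value was not tested.

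The 3 members listed as lower in the knockout code for proteins of other kinds. TMEM158 (chr3:45224466-45226278), a membrane protein first described as induced by Ras, was at an implied 13.1 CPM against 48.5 CPM in the controls. Its log2 fold change in the authors' deposited table was -1.89 (SE about 0.65, adjusted p 1.00). MAGEH1 (chrX:55452105-55453566), a gene of the melanoma antigen family, was at an implied 1.32 CPM against 5.89 CPM, with a log2 fold value of -2.15 (SE about 0.62) in the authors' deposited table. USP51, which lies 31050 bases away, was listed as lower in the same deposited table at -1.58 (SE about 0.55). FZD7 (chr2:202034587-202038445), a frizzled receptor for Wnt ligands, was at an implied 4.92 CPM against 14.9 CPM, with a log2 fold value of -1.60 (SE about 0.62) and a p of 0.0458 in the authors' deposited table, close to the listing limit.

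The second comparison set knockout cells with FLAG-TASOR against the same controls. It listed 4 members, TSPYL6 as higher and GJD3, PLPP6 and SOX4 as lower. The share listed as higher was 1 of 4, beside 32.6% of all genes in the table. The members' median log2 fold change in the authors' deposited table was -1.23, beside -1.36 over all 261 listed genes and -1.40 over the 210 coding ones, of which 30.0% were higher. The 210 keep the symbols left out of the members, with 5 of 6 such genes higher. Their p ran from 0.0276 to 0.0443 in the authors' deposited table, where every adjusted p was 0.999.

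Over all genes, at least 58 were listed both with and without FLAG-TASOR in TASOR KO cells, of 261 and 268 listed. TSPYL6 was the only member among them. Its implied level was 9.94 CPM with FLAG-TASOR, 23.4 CPM in the knockout alone, and 2.20 and 2.15 CPM in the controls as read from each table. The log2 fold change in the authors' deposited tables was 2.18 with FLAG-TASOR (SE about 0.83) and 3.45 without it (SE about 0.36). The level in cells with FLAG-TASOR was thus between the other 2 groups. Both comparisons share the controls, and the difference between them was not tested. RBMXL3, FZD7, MAGEH1 and TMEM158 were not in the FLAG-TASOR table, which does not show that they were at the control level.

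Among the lower genes of this table, SOX4 (chr6:21592768-21598619), a transcription factor with an HMG box, was at an implied 1.82 CPM against 7.33 CPM in the controls. Its log2 fold change was -2.01 (SE about 0.70) in the authors' deposited table. PLPP6 encodes a phosphatase of lipid phosphates and had the smallest fold of all members, at -1.07 (SE about 0.38), just past the listing limit of 1 in the authors' deposited table. Its implied level was 6.14 CPM against 12.9 CPM in the controls, and it lies at chr9:4662315-4665258. GJD3 (chr17:40362931-40363815), a connexin of gap junctions, was at -1.39 (SE about 0.46) in the authors' deposited table, with implied levels of 4.55 CPM against 11.9 CPM. The annotated antisense gene GJD3-AS1 overlaps GJD3 on the other strand and was listed as lower in the same deposited table at -1.22 (SE about 0.41). The sources used here do not say if strand was used in counting, and without strand the reads of the 2 genes cannot be told apart.

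**Figure D2:**
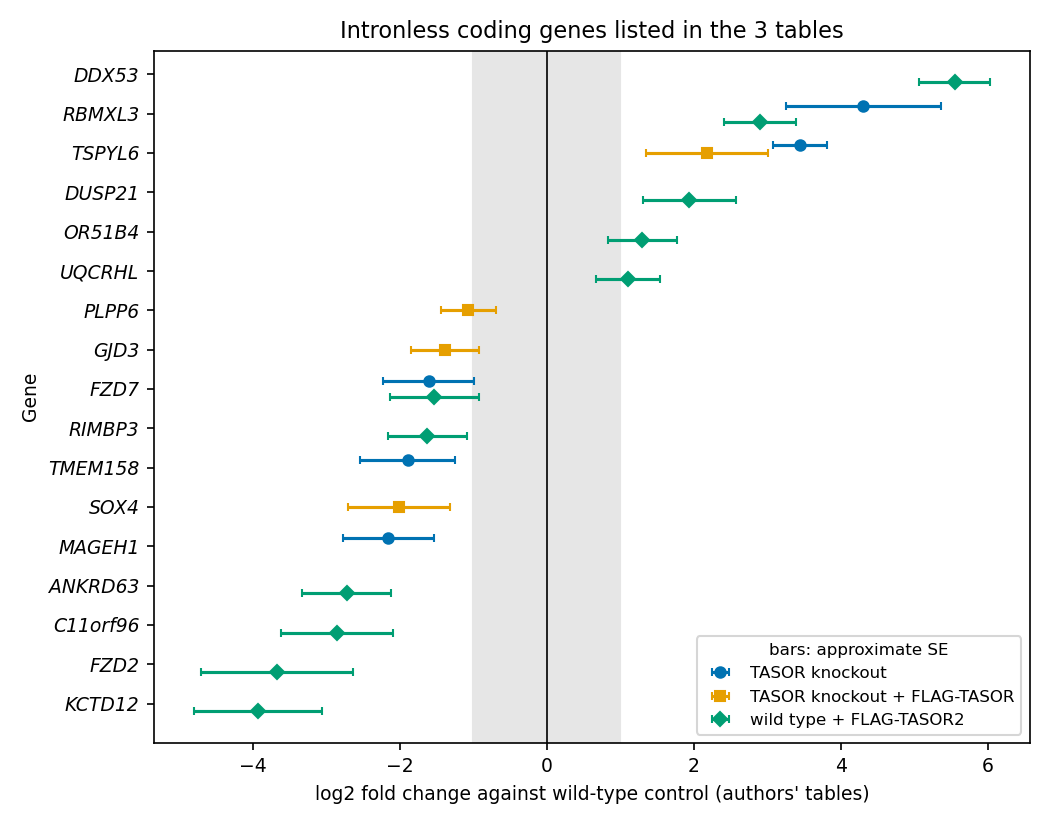
Log2 fold change against wild-type control from the authors' deposited tables for the 17 genes, with symbols for the 3 comparisons, bars of 1 approximate SE and a grey band for the range below the listing limit of 1. DDX53 is highest at 5.55 and KCTD12 lowest at -3.92, and each of the 3 genes listed in 2 tables has the same sign in both. The comparisons share their controls, and equal signs were not counted over all genes listed in 2 tables.

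The third comparison set wild-type cells with FLAG-TASOR2 against the controls. It listed 11 members, DDX53, RBMXL3, DUSP21, OR51B4 and UQCRHL as higher and ANKRD63, C11orf96, FZD2, FZD7, KCTD12 and RIMBP3 as lower. The share listed as higher was 5 of 11, or 45.5%, beside 40.5% of all genes in the table and 32.9% of its protein-coding genes. The members' median log2 fold change in the authors' deposited table was -1.53, beside -1.20 over all 884 listed genes and -1.32 over the 723 coding ones. The 723 keep the symbols left out of the members, and 61 of 73 such genes were listed as higher, so they are no like set.

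DDX53 had the largest fold and the smallest p of all members. It codes for a DEAD-box helicase known as a cancer-testis antigen and lies at chrX:22999961-23003589 in an intron of the noncoding gene PTCHD1-AS, on the opposite strand. Its implied level was 19.2 CPM with FLAG-TASOR2 and 0.410 CPM in the controls. The log2 fold change in the authors' deposited table was 5.55 (SE about 0.48, p 2.53e-05, adjusted p 0.0591). Only 5 of the 884 listed genes had a smaller p, and those were the 5 with an adjusted p below 0.05. The closest annotated coding sequence is that of DDX43, which has up to 17 exons and matched DDX53 at 73.2% of aligned bases, and DDX43 was in none of the tables. PTCHD1-AS was in none of them either. The use of strand in counting is not given, and the part of PTCHD1-AS reads in the DDX53 value was not tested.

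Over all genes, at least 99 were listed both in the knockout and with FLAG-TASOR2, RBMXL3 and FZD7 among them. RBMXL3 was the other member listed as higher in 2 tables. Its implied level was 12.9 CPM with FLAG-TASOR2 against 1.73 CPM in the controls, where the knockout table implied 1.90 CPM for the same controls. The log2 fold change in the authors' deposited table was 2.90 (SE about 0.49, p 0.00104, adjusted p 0.153), beside 4.31 (SE about 1.05) in the knockout. Since both comparisons use 1 set of controls, the second value is not independent of the first.

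DUSP21 (chrX:44844004-44844888), a dual-specificity phosphatase gene known from testis, was at an implied 3.66 CPM against 0.954 CPM, with a log2 fold value of 1.94 (SE about 0.64) in the authors' deposited table. Chromosome X as a whole was listed mostly as lower in this comparison, with 13 genes higher and 67 lower. DDX53, RBMXL3 and DUSP21 are 3 of those 13, and no (0) X-linked member was lower in this table. In the knockout, X held 6 higher and 15 lower genes, among them RBMXL3 and MAGEH1. With FLAG-TASOR, X held 1 higher and 29 lower genes and no (0) member.

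OR51B4 and UQCRHL had the smallest folds of the 5 members listed as higher with FLAG-TASOR2. OR51B4, an olfactory receptor gene beside the beta-globin cluster, was at an implied 67.8 CPM with FLAG-TASOR2 against 27.5 CPM in the controls. Its log2 fold change was 1.30 (SE about 0.47, with 0.360 as adjusted p) in the authors' deposited table. It lies at chr11:5301014-5301946 on the strand of long annotated transcripts of HBG2 and HBE1, in their introns. HBG2 was in none of the tables and HBE1 only in that for FLAG-TASOR, but HBB, 71619 bases away, was listed as higher with FLAG-TASOR2 at 1.94 (SE about 0.70) in the authors' deposited table. In the same deposited table HBA2 was at 2.04 (SE about 0.30), HBA1 at 1.12 (SE about 0.20) and HBZ at 1.38 (SE about 0.44). The part of globin transcription in the OR51B4 value was not tested. UQCRHL, a retrocopy of UQCRH, which encodes the hinge protein of mitochondrial complex III, was at 1.11 (SE about 0.43) in the authors' deposited table. It lies at chr1:15807169-15809348, and its implied level was 9.95 CPM against 4.61 CPM in the controls. Its coding sequence is 98.5% identical to that of UQCRH, so the split of reads between them is uncertain.

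**Figure D3:**
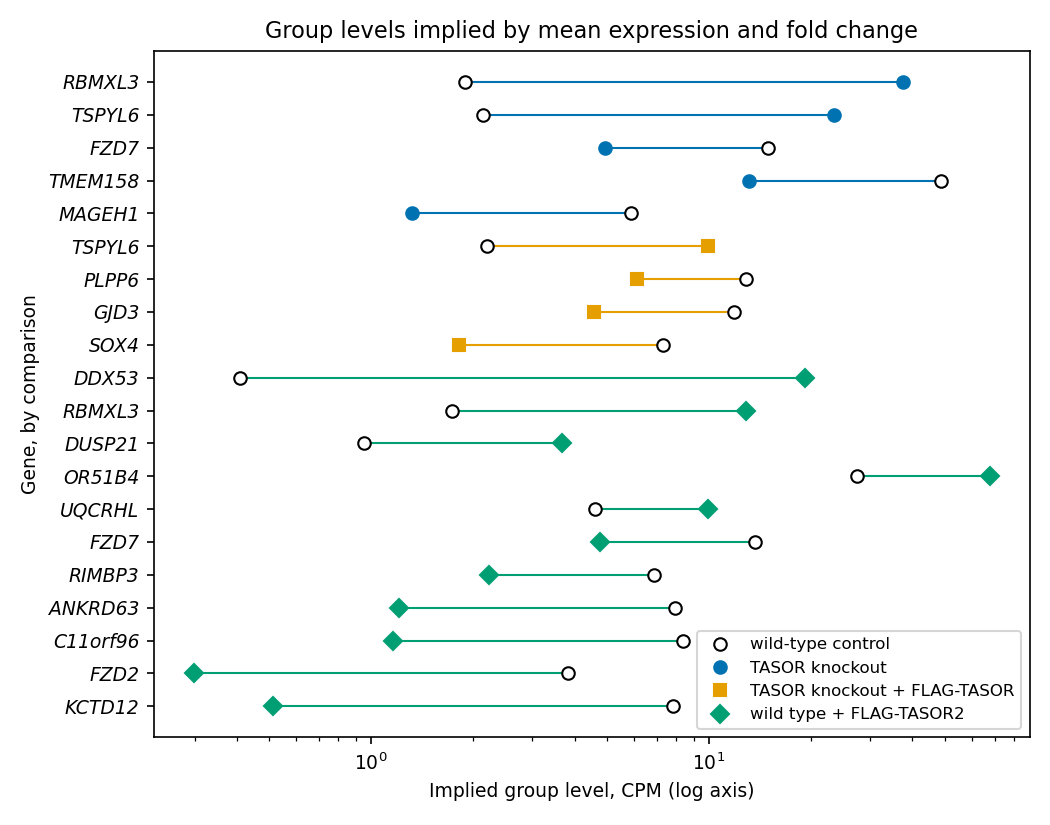
Group levels in CPM (log axis) implied by the authors' deposited mean expression and fold change for each of the 20 listings, with open circles for the controls and filled symbols for the altered group. Controls of the 4 genes RBMXL3, TSPYL6, DDX53 and DUSP21 sit between 0.410 and 2.20 CPM, and those of TMEM158 at 48.5 CPM.

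Among the members listed as lower with FLAG-TASOR2 were 2 frizzled genes, which encode Wnt receptors. FZD2 (chr17:44557459-44559570) was at an implied 0.299 CPM against 3.81 CPM in the controls, with a log2 fold value of -3.67 (SE about 1.03, with 0.254 as adjusted p) in the authors' deposited table. Its log2 mean expression of 1.04 is just above the listing limit, and 1.24% of the listed genes had a lower one. FZD7 was at an implied 4.75 CPM against 13.7 CPM, with -1.53 (SE about 0.61, with 0.394 as adjusted p) in the authors' deposited table. For comparison, the knockout table gave FZD7 nearly the same values, 4.92 against 14.9 CPM, from the same controls. The coding sequences of FZD2 and FZD7 matched at 81.2% of aligned bases, and FZD1, which is also intronless and matched each at 79.9% and 79.6%, was in none of the tables.

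KCTD12, an auxiliary subunit of GABA-B receptors, had the lowest fold of all members. It was at an implied 0.514 CPM with FLAG-TASOR2 against 7.80 CPM in the controls. The log2 fold change was -3.92 (SE about 0.87, p 0.00407, adjusted p 0.203) in the authors' deposited table. It lies at chr13:76880166-76886390 and overlaps no other annotated gene, and no listed gene lay within 1 Mb of it.

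ANKRD63, an ankyrin repeat gene, was at an implied 1.20 CPM against 7.93 CPM, with a log2 fold value of -2.72 (SE about 0.61) in the authors' deposited table. It lies at chr15:40281444-40282586 in an intron of PLCB2, a phospholipase C gene, on the same strand. PLCB2 was listed as lower in the same deposited table at -2.53 (SE about 0.46), and its implied level was 2.33 CPM against 13.5 CPM. Reads from unspliced PLCB2 RNA would fall on ANKRD63, and their part was not tested. DISP2, 75649 bases away, was also lower at -4.11 (SE about 1.14) in the authors' deposited table, while THBS1, 681978 bases away, was higher at 3.21 (SE about 0.24, adjusted p 0.0353).

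C11orf96 (chr11:43942505-43944338), a gene without a settled function, was at -2.85 (SE about 0.77) in the authors' deposited table, from an implied 8.40 CPM in the controls to 1.16 CPM. Its listed neighbours within 1 Mb were ALX4, CD82 and TSPAN18, all lower, and TP53I11, higher, at -1.57, -2.07, -5.01 and 1.96 in that order in the authors' deposited table. A noncoding gene on the same strand is identical to 57.4% of the C11orf96 coding bases, and another overlaps C11orf96 on the other strand. Neither was in any of the tables, and the C11orf96 count is uncertain. RIMBP3, a RIM-binding protein gene of the male germline, was at -1.62 (SE about 0.54) in the authors' deposited table. It lies at chr22:18605815-18611919, and its implied level was 2.24 CPM against 6.89 CPM. Its copies RIMBP3B and RIMBP3C match 99.7% of its coding bases and were in none of the tables, so its count is uncertain.

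By role, the list of testis, germline and cancer-testis symbols took 4 members. TSPYL6, RBMXL3 and DDX53 were listed as higher wherever they were listed, and MAGEH1 as lower. That list as a whole did not share this direction, with 4 higher and 4 lower genes in the knockout, 1 and 6 with FLAG-TASOR and 8 and 13 with FLAG-TASOR2. It was built on symbol prefixes and also holds somatic genes such as ADAM19. MAGEH1 entered by the MAGE prefix alone, which does not show that it is a germline gene. The prefixes miss DUSP21, known from testis and listed as higher, and RIMBP3, of the male germline and listed as lower. A single gene of it (1) had an adjusted p below 0.05 in the authors' deposited tables, PAGE1, an X-linked antigen gene, which fell by 6.87 on the log2 scale with FLAG-TASOR2. The receptor list took FZD2, FZD7 and OR51B4, of which the first 2 were lower, and the list as a whole had 2 higher and 2 lower genes in the knockout, 1 and 3 with FLAG-TASOR, and 3 and 10 with FLAG-TASOR2. The transcription factor list took SOX4, with 2 higher and 4 lower, 3 and 3, and 9 and 14 genes in the same order. The chromatin and RNA list took DDX53, RBMXL3 and TSPYL6, with 3 higher and 0 lower, 2 and 2, and 6 and 8 genes. The ubiquitin list took KCTD12 and MAGEH1, with 4 higher and 5 lower, 2 and 7, and 1 and 15 genes. The list of kinases, phosphatases and GTPases took DUSP21, with 1 higher and 1 lower, 2 and 3, and 6 and 18 genes. The membrane list took TMEM158, with 8 higher and 13 lower, 4 and 12, and 10 and 37 genes. No member was in the list for heat shock genes, with 0 listed genes, 0, and 6 lower, or in that for retrotransposon-derived genes, with 1 higher, 1 higher and 1 lower. A further 6 members, ANKRD63, C11orf96, GJD3, PLPP6, RIMBP3 and UQCRHL, were in no list.

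In the human genome 10 of the 17 members overlap another annotated gene. TSPYL6, RBMXL3, DDX53, ANKRD63 and OR51B4 lie inside introns, the first 3 on the strand opposite the host and the other 2 on the same strand. A further 5, C11orf96, GJD3, PLPP6, RIMBP3 and SOX4, overlap an exon of another gene. Such overlaps were not counted for the other annotated intronless genes, so these positions are not shown to be particular to the members. Of the 20 listings, 11 had another listed gene within 1 Mb in the same table. Over these, 15 neighbour pairs had the same sign and 7 the opposite one. With FLAG-TASOR2 it was 12 of 19 pairs, beside 83.0% of 2116 pairs over all genes of that table, counted from each gene of a pair. With FLAG-TASOR it was 2 of 2 beside 82.2%, and in the knockout 1 of 1 beside 97.2%. The 15 include ANKRD63 with PLCB2 and GJD3 with GJD3-AS1, which overlap, and UQCRHL with the 3 related genes RNU1-1, RNU1-3 and RNU1-4. The 3 members with the largest positive folds had few listed neighbours. RBMXL3 and TSPYL6 had none within 1 Mb in the tables that list them, and those of DDX53, ACOT9 and APOO, were listed as lower at -1.29 and -1.39 in the authors' deposited table.

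Promoters were available from RefSeq (GRCh38.p14) for 9 of the 17 genes. The RefSeq start lies inside the gene as GENCODE 29 annotates it for DUSP21 (17 bases), TSPYL6 (43 bases) and SOX4 (983 bases), so the 250 bases before it are in part, and for SOX4 wholly, annotated gene. The 120 bases before the RefSeq start, for TSPYL6 only the 77 of them outside the annotated gene, are shown for the 3 genes with the largest positive folds and for KCTD12, with the largest negative one. Capitals mark matches on either strand to CCAAT, to the GC box GGGCGG or to CGCGAGA, the last searched for after its repeats had been seen. The intervals are chrX:22999840-22999959 (plus) for DDX53, chrX:115189290-115189409 (plus) for RBMXL3, chr2:54256273-54256349 (minus) for TSPYL6 and chr13:76886406-76886525 (minus) for KCTD12.
DDX53: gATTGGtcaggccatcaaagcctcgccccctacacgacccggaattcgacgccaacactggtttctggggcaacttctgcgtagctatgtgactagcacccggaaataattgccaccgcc
RBMXL3: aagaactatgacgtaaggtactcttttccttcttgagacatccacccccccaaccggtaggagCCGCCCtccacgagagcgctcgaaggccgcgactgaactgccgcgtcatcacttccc
TSPYL6: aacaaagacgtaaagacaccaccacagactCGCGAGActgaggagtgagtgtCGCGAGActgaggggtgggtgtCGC
KCTD12: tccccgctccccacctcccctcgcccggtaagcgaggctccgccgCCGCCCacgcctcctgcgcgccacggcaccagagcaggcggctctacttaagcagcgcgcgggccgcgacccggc
The TSPYL6 window of 250 bases holds CGCGAGA 3 times, of which 2 lie wholly in the 77 bases shown and the third begins at their end, and a stretch of 15 bases, gtgtcgcgagactga, occurs 2 times in it. Of all 35116 promoters of the table, 2.95% hold CGCGAGA in the 250 bases before the start and 0.12% hold it 3 or more times. No such match was found in the other 8 members' promoters. The TATA box letters TATAAA were in none (0) of the 9, against 10.7% of all promoters, CCAAT was in 3 of 9, SOX4 among them, against 32.0%, and the GC box in 5 of 9 against 42.6%. GC content in those 250 bases was 47.6% to 56.0% for the 4 members listed as higher and 48.8% to 82.4% for the 5 listed as lower, beside a median of 58.0% over all promoters. The matches are letters in a window and do not show binding.

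Genes with other exon numbers were counted in the same way, with the same symbols left out of the coding classes. The noncoding single-exon class kept mitochondrial ribosomal RNA genes, 2 listed with FLAG-TASOR2 and 1 with FLAG-TASOR, all as higher. In the knockout, 8 of 16 coding genes with 2 to 4 exons, 12 of 51 with 5 to 9 and 37 of 92 with 10 or more were listed as higher, beside 2 of 5 intronless members. Coding genes with 1 exon in some transcripts only were higher in 4 of 9 cases in the knockout, 1 of 13 with FLAG-TASOR and 10 of 36 with FLAG-TASOR2. For genes with introns the counts with FLAG-TASOR were 8 of 21, 16 of 59 and 32 of 107, beside 1 of 4. With FLAG-TASOR2 they were 28 of 95, 53 of 176 and 81 of 332, beside 5 of 11. Single-exon genes that do not code for protein were listed as higher in 36 of 42 cases with FLAG-TASOR2, 13 of them small nuclear RNA genes. They were higher in 2 of 5 cases in the knockout and 6 of 10 with FLAG-TASOR, and other genes that do not code for protein were higher in 66 of 88 cases with FLAG-TASOR2. The absolute log2 fold change of the 11 members was 2.72 at the median for FLAG-TASOR2, from the authors' deposited table, beside 1.77 to 1.90 for the 3 classes with introns, while their median log2 mean expression was 2.26, lower than the 2.98 to 3.31 of those classes. Whether expression bears on the size of these folds was not tested, and no test was made between classes. In the other tables the members' median absolute fold lay within or near the range of those classes. The authors' deposited values gave 2.15 beside 1.88 to 2.15 in the knockout and 1.70 beside 1.51 to 1.94 with FLAG-TASOR. The members' median log2 mean expression was 3.68 beside 2.34 to 3.01 in the knockout and 2.82 beside 2.73 to 2.94 with FLAG-TASOR.

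**Figure D4:**
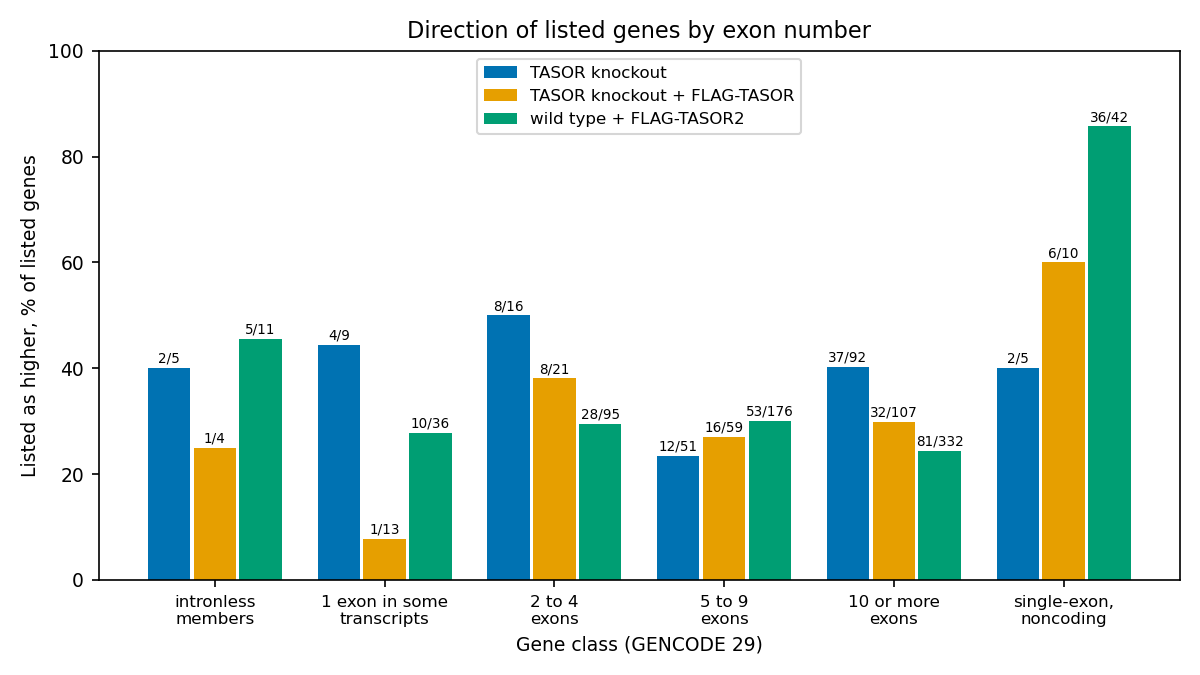
Share of listed genes that were listed as higher, in percent, for classes of exon number and the 3 comparisons, with the numbers higher and listed above each bar. The intronless members stand at 2 of 5, 1 of 4 and 5 of 11, and noncoding single-exon genes with FLAG-TASOR2 at 36 of 42.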

How the data were processed

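Total RNA of 8 K-562 libraries in 4 groups of 2 was sequenced. Named in the submitters' processing notes, without a role for each, are the hg38 build, STAR 2.7.8, edgeR, DESeq2 and Salmon. Per the file headers, each deposited table holds for every listed gene a log2 fold change and a log2 mean CPM, with the F score and both the raw and the adjusted p-value. Column names match the output of the quasi-likelihood F-test in edgeR, though the sources used here do not say which tool made them. Without values per library, depth is unknown and no model was fitted.

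Genes were matched to GENCODE 29 (GRCh38) by Ensembl identifier, which worked for 257 of 268, 253 of 261 and 853 of 884 listed genes. The SE (approximate) was taken as the size of the log2 fold change over the root of the deposited F score. Implied group levels assume that the deposited log2 mean is the mean CPM over 2 control and 2 altered libraries. As a check, controls read from 2 tables were compared for genes listed in both and were within 1.25-fold for 55 of 58, 85 of 99 and 49 of 59 genes, at a median ratio of 1.04, 1.08 and 1.06. The number of genes tested is the adjusted over the unadjusted p of the top gene, or for FLAG-TASOR the largest row number. Total degrees of freedom, recovered from F and p and tested on simulated data, gave no (0) member with all counts of a group at 0.

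Coding sequences were compared with all GENCODE 29 transcripts with BLAST 2.17.0 (E-value limit 1e-10). Scripts used Python 3.11.15, pandas 2.3.3 and scipy 1.17.1. Every member was named, with values in full if it had an adjusted p below 0.05, was listed in 2 tables, was among the 5 highest or lowest member folds of a table, or was among the first 3 by p of a role list. The members and lists were chosen with earlier results of these data known. For each comparison 7 alternatives were tried on the count and the median of members.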

Additional observations from a re-analysis of the deposited data

How the results depend on the processing

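The number of listed members depended on the definition and on the listing limits. With 1 exon in at least 1 transcript, the counts were 14 (knockout), 17 (FLAG-TASOR) and 47 (FLAG-TASOR2), in place of 5, 4 and 11. With an unadjusted p below 0.01, 2 remained in the knockout, TSPYL6 and RBMXL3, and 5 with FLAG-TASOR2, while FLAG-TASOR had no value. With mean expression at or above the table median, FLAG-TASOR kept 2 and FLAG-TASOR2 kept 3. With an absolute log2 fold change of at least 1.5, FLAG-TASOR kept 2. The median log2 fold change of the deposited values changed sign in the knockout with 1 exon in every basic transcript (0.26), at or above the median expression (0.92) and at p below 0.01 (3.88). It did so for FLAG-TASOR at a fold of at least 1.5 (0.085) and for FLAG-TASOR2 at or above the median expression (1.30). At p below 0.01 the FLAG-TASOR2 median moved to -2.72. In these cases fewer or other genes entered the median. The other 26 values stayed within 1.5 times the count or within the median approximate SE. Leaving out a library could not be done, since the tables hold none. No paired analysis was possible because the tables hold comparisons only, although the labels number the libraries alike. Depth is unknown, so its limits on these values could not be given.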

Other observations

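Just outside the rule are 3 coding genes with 1 exon in every basic transcript and 2 in another annotated one. LDOC1, a gene derived from the Gag sequence of a retrotransposon, was listed as higher in the knockout at a log2 fold value of 2.11 (SE about 0.57, with 1.00 as adjusted p) in the authors' deposited table, from an implied 1.56 CPM in the controls to 6.77 CPM. FOXD1, a forkhead transcription factor, was listed as lower with FLAG-TASOR2 at -2.28 (SE about 0.62, with 0.248 as adjusted p) in the authors' deposited table. ITPRIPL2, a membrane protein gene, was also listed as lower there at -1.86 (SE about 0.60, with 0.313 as adjusted p) in the authors' deposited table.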
